A study of Mus musculus with 12 samples.

Results

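Folate and its antagonist methotrexate enter cells through the same few proteins and are trapped inside by the same enzyme. This account covers the 6 mouse genes for that route: the carriers Slc46a1 and Slc19a1, the folate receptors Folr1 and Folr2, the polyglutamate synthase Fpgs and the polyglutamate hydrolase Ggh. A probe set, the group of probes that reads a gene, was taken where the platform annotation pairs it with exactly 1 of these symbols. This gave 7 probe sets of 35556, and all 6 genes among the 18820 genes that could be read. Ggh had 2 probe sets with identical values in every array, which were counted once. Expression was measured in proximal jejunum, 1 Affymetrix array per mouse, in a study of methotrexate mucositis, the injury of the gut lining by chemotherapy.

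There were 4 groups of 3 mice. Knockout mice of strain B6.129-Tlr2tm1Kir/J, which carry a targeted allele of the bacterial lipoprotein receptor gene Tlr2, were given methotrexate at 40 mg per kg per day by intraperitoneal injection for 4 days and were sacrificed on day 7. Wild-type C57BL6/J mice were given the same course. The other groups were untreated knockout and untreated wild-type mice. The labels record no injection for the untreated mice and no age for any group. All values below are the authors' log2 RMA signals (background-corrected, normalised between arrays and summarised per probe set), and a difference of 1 is a doubling. Differences were tested with limma over all 18820 genes in 1 fit of the 12 arrays, and "rose" and "fell" are used where the Benjamini-Hochberg adjusted p was under 0.05. Values after ± are SD for a group of 3 mice and limma's standard error for a change.

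The proton-coupled folate transporter, the product of Slc46a1, takes up dietary folate at the acidic brush border of proximal enterocytes, and inherited loss of it in humans causes folate malabsorption. The reduced folate carrier, the product of Slc19a1, works at neutral pH in most tissues and is the main route of methotrexate into many cells, while the receptors bind folate at the cell surface and carry it in by endocytosis. Inside the cell Fpgs adds glutamates, which keep folate and methotrexate from leaving, and Ggh removes them in the lysosome.

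The arrays differed in a way that touches these genes. The mean signal of 8 pancreatic acinar genes was 12.19 to 12.64 in 7 arrays and 4.39 to 6.21 in the other 5. The 7 were replicates 2 and 3 of the treated knockout, replicate 2 of the treated wild type, and replicates 2 and 3 of each untreated group. As a mean, the 5 genes that mark the proximal gut moved with this split. Their mean was 7.61 and 8.36 in the treated knockout arrays of high and 7.16 in that of low pancreatic signal, 9.22 against 8.76 and 7.77 in treated wild type, 9.93 and 9.94 against 6.71 in untreated knockout, and 9.76 and 9.84 against 7.10 in untreated wild type. The arrays of high signal were thus the higher ones within every group, and pancreas in the sample and a more proximal piece of gut cannot be told apart. The 5 genes did not vary alike. Gata4 spanned only 9.36 to 9.79 in untreated knockout and 9.42 to 9.83 in untreated wild type. Slc40a1 spanned 5.75 to 11.09 and 6.42 to 11.30 in the same groups. Lct, the lactase of the brush border, averaged 3.66 ± 0.21 in treated knockout mice, 10.88 ± 0.86 in treated wild-type, 11.47 ± 0.35 in untreated knockout and 11.64 ± 0.30 in untreated wild-type mice, so this defining enterocyte marker was near the low end of the signal scale in the first group. Tlr2 read 6.18, 5.46 and 5.28 in the treated arrays labelled knockout and 4.49, 4.65 and 4.51 in those labelled wild type. In untreated mice it read 4.36, 5.02 and 5.01 in knockout arrays and 4.37, 4.65 and 4.38 in wild-type arrays. The position of the Tlr2 probe set against the targeted deletion is unknown, so these signals do not test the genotype labels, which are used as given.

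Slc46a1, the proton-coupled carrier of the brush border, fell strongly after methotrexate in knockout mice and showed the largest change of the 6 genes in that comparison. Its signal was 5.68, 6.99 and 7.59 in treated knockout mice, against 10.02, 11.01 and 10.95 in untreated knockout mice. All 3 treated arrays lay below all 3 untreated ones, and the lowest treated array was more than 1 log2 unit below the other treated arrays. The difference was -3.91 ± 0.41 (95% interval -4.81 to -3.01, adjusted p = 1.89e-05), which is a 15.0-fold lower signal. Over all genes 34.8% passed this test, 16% in the downward direction, and the groups did not overlap for 44.6%.

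In wild-type mice the 3 Slc46a1 signals were 10.89, 10.60 and 10.88 after methotrexate and 11.00, 11.47 and 11.23 without it. The treated arrays all lay below the untreated ones, but by little, and the difference of -0.44 ± 0.41 did not pass (95% interval -1.34 to 0.46, adjusted p = 0.668). The groups did not overlap for 22.6% of all genes in this comparison. With the wild-type effect of methotrexate subtracted from the knockout effect, the difference was -3.47 ± 0.58 (interaction, adjusted p = 0.00104), a test that 23.8% of all genes passed, 12% in this direction. After methotrexate, Slc46a1 was 16.4-fold lower in knockout than in wild-type mice, a difference of -4.04 ± 0.41 (95% interval -4.94 to -3.14, adjusted p = 1.21e-05) with no overlap. Of all genes 46.2% did not overlap in this comparison, and 36.9% passed, 16.8% of all genes being lower. The Slc46a1 difference between treated genotypes was -3.31 among arrays of high and -5.20 among arrays of low pancreatic signal, and the interaction was -2.95 and -4.22 in the same classes. Without treatment the genotypes differed by -0.57 ± 0.41 (95% interval -1.47 to 0.33, adjusted p = 0.812), with overlapping arrays, while 13.1% of all genes did not overlap there. In order of level, the groups ran from treated knockout (6.75 ± 0.97) through untreated knockout (10.66 ± 0.56) and treated wild type (10.79 ± 0.17) to untreated wild type (11.23 ± 0.24), where untreated knockout and treated wild type overlap and the 2 wild-type groups did not pass.

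Among arrays with high pancreatic signal the Slc46a1 difference between 2 treated and 2 untreated knockout mice was -3.69, and among those with low signal, with 1 mouse each, it was -4.34. Its direction was thus the same in both classes of array. Enterocyte markers moved with it. All 12 enterocyte genes fell after methotrexate in knockout mice, with a median change of -3.39 (between -7.81 and -2.19), and their mean signal was 6.19 to 8.37 in the 3 treated knockout arrays, against 11.40 to 11.58 in untreated knockout mice. In wild-type mice limma called none of the 12 after methotrexate (median -0.04, and 0 at an unadjusted p under 0.05), and between treated genotypes 12 of 12 were lower in the knockout (median -3.59). Of all genes 16% fell after methotrexate in knockout mice and 16.8% were lower between treated genotypes. In wild type 11.7% of all genes had an unadjusted p under 0.05 by limma. The treated knockout mouse with the lowest enterocyte mean also had the lowest Slc46a1. Over the 12 arrays the correlation of Slc46a1 with that mean was 0.98, a description only, since 9 arrays lie close together and 3 far below. In these bulk samples fewer enterocytes and less RNA per enterocyte cannot be told apart.

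The region around the start of Slc46a1 is shown because it is the gene that changed most, and that of Fpgs because it moved the other way. Both are RefSeq promoter windows of build GRCm38.p6, 250 bases before and 50 after the start, and 4 of the 6 genes had such a window. In the Slc46a1 window, chr11:78465451-78465750 on the plus strand, capitals mark the only match to a loose form of the core motif of nuclear respiratory factor 1, spelled GCGCA, any 1 base, GCGC, which begins at the gene's start. In the Fpgs window, chr2:32694126-32694425 on the minus strand, capitals mark the matches to GGGCGG (GC box; 3, of which the first and second overlap) and to CCAAT (2, read on the opposite strand).
Slc46a1: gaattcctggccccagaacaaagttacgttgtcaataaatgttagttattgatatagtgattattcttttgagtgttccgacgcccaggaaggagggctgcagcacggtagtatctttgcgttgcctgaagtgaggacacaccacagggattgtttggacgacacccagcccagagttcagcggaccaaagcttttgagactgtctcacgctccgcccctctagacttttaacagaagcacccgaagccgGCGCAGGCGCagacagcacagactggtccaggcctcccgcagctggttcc
Fpgs: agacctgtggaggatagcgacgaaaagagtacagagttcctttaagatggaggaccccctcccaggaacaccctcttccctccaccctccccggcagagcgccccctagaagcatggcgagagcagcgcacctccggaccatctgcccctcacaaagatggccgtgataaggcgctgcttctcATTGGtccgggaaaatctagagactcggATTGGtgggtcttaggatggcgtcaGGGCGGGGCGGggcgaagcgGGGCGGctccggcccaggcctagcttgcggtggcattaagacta
Matches were sought on both strands. Of 32851 windows of this length, 4.6% held the nuclear respiratory factor 1 form, 35.7% GGGCGG and 37.4% CCAAT. The Slc46a1 window also held 1 GGGCGG, on the opposite strand. CAAAGTCCA, a motif of the enterocyte factor HNF4A that 0.475% of windows held, was in neither. These matches describe the sequence and were not tested for binding.

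**Figure D1:**
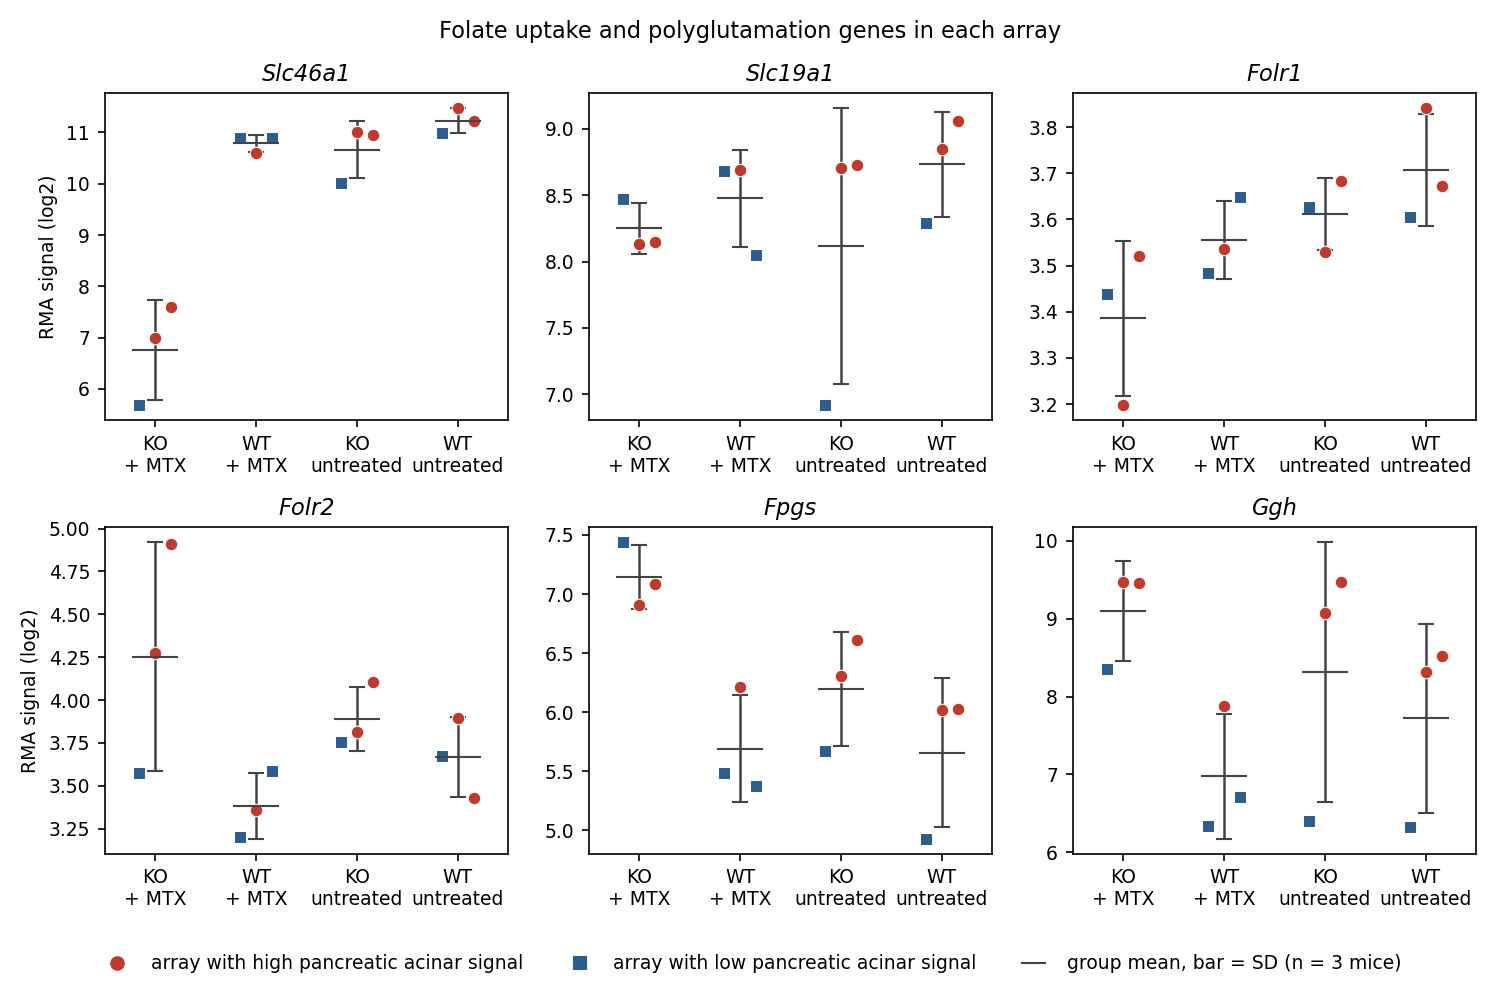
Log2 RMA signal of the 6 genes (vertical axes, a different range in each panel) in each of 12 arrays, by group (horizontal axis); horizontal marks are group means with SD over 3 mice, red circles are arrays with high and blue squares arrays with low pancreatic acinar signal. Slc46a1 sits between 5.68 and 7.59 in treated knockout mice and at 10.02 or above elsewhere, and Ggh is higher in the red arrays than in the blue ones within every group.

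Slc19a1, the reduced folate carrier, passed the test in no comparison when all 12 arrays were fitted. It read 8.47, 8.13 and 8.15 in treated knockout mice, against 6.92, 8.71 and 8.73 in untreated knockout mice. Replicate 1 of the untreated knockout lies below all treated arrays and the other untreated arrays above them, so the groups overlap and this array decides the sign. The difference was 0.13 ± 0.42 (95% interval -0.79 to 1.05, adjusted p = 0.847) with that array and -0.47 without it (adjusted p = 0.182). It was 1.55 in the pair of knockout arrays with low pancreatic signal, to which that array belongs, and -0.58 among those with high signal. The signs were thus opposite, and with 1 treated and 1 untreated mouse the first difference has no measure of spread. In wild-type mice Slc19a1 read 8.68, 8.69 and 8.05 after methotrexate and 8.29, 8.85 and 9.06 without it, a difference of -0.26 ± 0.42 with overlapping arrays (95% interval -1.18 to 0.66, adjusted p = 0.818). Knockout and wild type differed by -0.23 ± 0.42 after methotrexate (adjusted p = 0.745) and by -0.62 ± 0.42 without it (adjusted p = 0.798). Among arrays of high pancreatic signal, with 1 treated wild-type mouse, the treated genotypes differed by -0.55. The interaction was 0.39 ± 0.59 (adjusted p = 0.723). The 95% intervals reached -1.54 between untreated genotypes and 1.69 for the interaction.

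The folate receptor genes, which are neighbours on chromosome 7, gave dim signals. The mean of Folr1 over all arrays, 3.56, lay at the 30.4th percentile of all genes, and that of Folr2, 3.80, at the 33.6th. Folr1, the alpha receptor of some polarised epithelia such as the kidney tubule, read 3.44, 3.20 and 3.52 in treated knockout mice and 3.63, 3.53 and 3.68 in untreated knockout mice. All treated arrays lay just below the untreated ones, and the groups did not overlap for 44.6% of all genes. The difference of -0.23 ± 0.11 did not pass (95% interval -0.47 to 0.02, adjusted p = 0.144). In wild-type mice Folr1 read 3.48, 3.53 and 3.65 after methotrexate and 3.60, 3.84 and 3.67 without it, and the groups overlap. Its differences in the other comparisons were between -0.17 and -0.08, with adjusted p-values of 0.283 to 0.888.

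Folr2, the beta receptor known from macrophages, was higher in knockout than in wild-type mice after methotrexate. It read 3.57, 4.27 and 4.91 in treated knockout mice, against 3.20, 3.36 and 3.58 in treated wild-type mice. The knockout arrays spread over more than 1 log2 unit, and the lowest of them lies within the wild-type range. The difference was 0.87 ± 0.27 (95% interval 0.27 to 1.47, adjusted p = 0.0259), a 1.83-fold higher signal, in a comparison where 36.9% of all genes passed and 20.2% were higher. Leaving out 1 array ended the call in 4 of 12 fits. The adjusted p was 0.0876 and 0.0627 when replicate 1 or 2 of the wild type was dropped. It was 0.0661 when replicate 2 of the knockout was dropped and 0.0861 when replicate 3 was, where the difference was 0.54. The difference was also 1.23 among arrays of high and 0.18 among arrays of low pancreatic signal, and over the settings that change anything else the adjusted p ran between 0.00168 and 0.581.

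Against untreated knockout mice, which read 3.75, 3.81 and 4.10, the Folr2 difference was 0.36 ± 0.27 and did not pass (adjusted p = 0.350), although it was 0.70 without replicate 1 of the treated knockout (adjusted p = 0.0229). In wild-type mice, which read 3.20, 3.36 and 3.58 with methotrexate and 3.67, 3.90 and 3.43 without it, the Folr2 difference was -0.28 ± 0.27 (adjusted p = 0.678). Those groups overlap. Without treatment the genotypes differed by 0.22 ± 0.27 (adjusted p = 0.891), and the interaction was 0.65 ± 0.39 (adjusted p = 0.284). Without replicate 1 of the treated knockout the interaction was 0.99 (adjusted p = 0.0226). Macrophage markers moved in the same direction as Folr2. Of 12 macrophage genes 10 were higher in treated knockout than in treated wild-type mice and none was lower, against 20.2% higher and 16.8% lower of all genes. The macrophage genes had a median difference of 2.37, and their mean signal was 7.54 to 7.93 in treated knockout mice, against 5.24 to 5.99 in treated wild-type mice. After methotrexate in wild-type mice limma called none of the 12 macrophage genes, with a median change of -0.71. At an unadjusted p under 0.05 the count there was 8 of 12, against 11.7% of all genes. The part of macrophage genes in the Folr2 difference was not tested. The treated knockout mouse with the lowest macrophage mean also had the lowest Folr2.

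Fpgs, the enzyme that adds glutamates to folate and methotrexate, was highest in treated knockout mice. It read 7.44, 6.91 and 7.09 there, against 5.67, 6.30 and 6.61 in untreated knockout mice. The treated arrays all lay above the untreated ones, and the groups did not overlap for 44.6% of all genes. Fpgs rose by 0.95 ± 0.34, or 1.93-fold, with an adjusted p of 0.0498 that barely passes (95% interval 0.20 to 1.69). Of all genes 18.8% were higher by this test. The call ended when probe sets of 1 gene were averaged (adjusted p = 0.0501) or when all probe sets were tested (0.0732), and it held with the pancreatic acinar mean as a covariate (0.99, adjusted p = 0.0145). The difference was 1.77 in the pair of arrays with low and 0.54 among those with high pancreatic signal. Leaving out 1 array ended the call in 9 of 12 fits, with adjusted p-values between 0.0208 and 0.166 over all 12. Dropping any treated knockout array ended it (0.136, 0.0647 and 0.0865 for replicates 1, 2 and 3). So did dropping treated wild-type replicate 1 or 3 (0.0620 and 0.0575), untreated knockout replicate 1 or 2 (0.166, with a change of 0.69, and 0.0883), and untreated wild-type replicate 2 or 3 (0.0556 and 0.0540).

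The difference between treated genotypes was firmer. Fpgs read 5.49, 6.21 and 5.38 in treated wild-type mice, all below the treated knockout mice, and was higher in the knockout by 1.45 ± 0.34, or 2.73-fold (95% interval 0.71 to 2.20, adjusted p = 0.00524). Of all genes 46.2% did not overlap in this comparison, and 36.9% passed, 20.2% of all genes being higher. Within arrays of high pancreatic signal, with 1 treated wild-type mouse, the Fpgs difference was 0.78. Within those of low signal, with 1 treated knockout mouse, it was 2.01, so its direction was the same and its size was not. Within treated wild type and each untreated group, Fpgs was higher in the arrays of high pancreatic signal. Untreated wild-type mice read 4.93, 6.02 and 6.03, which overlap both treated wild-type and untreated knockout mice. After methotrexate the Fpgs difference in wild-type mice was 0.04 ± 0.34 (95% interval -0.71 to 0.78, adjusted p = 0.978), and the untreated genotypes differed by 0.54 ± 0.34 (adjusted p = 0.788). The interaction of 0.91 ± 0.48 did not pass (adjusted p = 0.219), although it did with array weights (1.01, adjusted p = 0.0243) and without replicate 1 of the untreated wild type (1.28, 0.0485). Among arrays of low pancreatic signal, with 1 mouse in every group but treated wild type, the interaction was 1.26. By group mean Fpgs ran 5.66 ± 0.63 in untreated wild type, 5.69 ± 0.46 in treated wild type, 6.20 ± 0.48 in untreated knockout and 7.14 ± 0.27 in treated knockout mice, where all neighbours but the last pair overlap.

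Ggh, the lysosomal hydrolase that removes the glutamates, had within-group SDs of 0.64 to 1.67, the largest of the 6 genes in every group but the treated knockout. It read 8.35, 9.47 and 9.46 in treated knockout mice, 6.34, 7.88 and 6.71 in treated wild-type mice, 6.41, 9.07 and 9.47 in untreated knockout mice and 6.33, 8.31 and 8.52 in untreated wild-type mice. Within every group the arrays with high pancreatic acinar signal gave a higher Ggh than those with low signal. Over the 7 arrays with high signal Ggh lay between 7.88 and 9.47, and over the other 5 between 6.33 and 8.35. Its correlation with the acinar mean over the 12 arrays was 0.80, a description over points that share these 2 classes. The top of the low range is replicate 1 of the treated knockout, and the other 4 arrays of that class were at 6.71 or below.

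Treated knockout and treated wild-type mice did not overlap in Ggh, but the difference of 2.12 ± 0.80 missed the threshold (95% interval 0.35 to 3.88, adjusted p = 0.0597). The 8 acinar genes differed between the same groups by a median of 2.26, without any passing. The groups were apart for 46.2% of all genes in this comparison. With the acinar mean as a covariate the difference was 1.56 ± 0.38 (adjusted p = 0.0066), and it was 1.59 among arrays with high and 1.83 among arrays with low pancreatic signal. Of 13 other settings 9 called it, as did 4 of the 12 leave-one-out fits, those that lacked replicate 1 of the treated knockout (adjusted p = 0.0476), replicate 2 of the treated wild type (0.0462), or replicate 1 of the untreated knockout (0.0146) or untreated wild type (0.0417). Over all of these its adjusted p ran between 0.000333 and 0.178. Since the means of the acinar and proximal genes moved together, pancreas and gut segment cannot be told apart in the Ggh values. For methotrexate in knockout mice the Ggh difference was 0.78 ± 0.80 (95% interval -0.99 to 2.54, adjusted p = 0.511). It was 1.94 between the single treated and untreated knockout arrays with low pancreatic signal and 0.19 among those with high signal. In wild-type mice it was -0.74 ± 0.80 (95% interval -2.51 to 1.02, adjusted p = 0.714), and -0.15 with the acinar covariate. The untreated genotypes differed by 0.60 ± 0.80 (adjusted p = 0.905), and the interaction was 1.52 ± 1.13 (adjusted p = 0.412). The group means of Ggh were 6.98 ± 0.80 in treated wild type, 7.72 ± 1.21 in untreated wild type, 8.32 ± 1.67 in untreated knockout and 9.09 ± 0.64 in treated knockout mice, and each neighbouring pair overlaps.

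**Figure D2:**
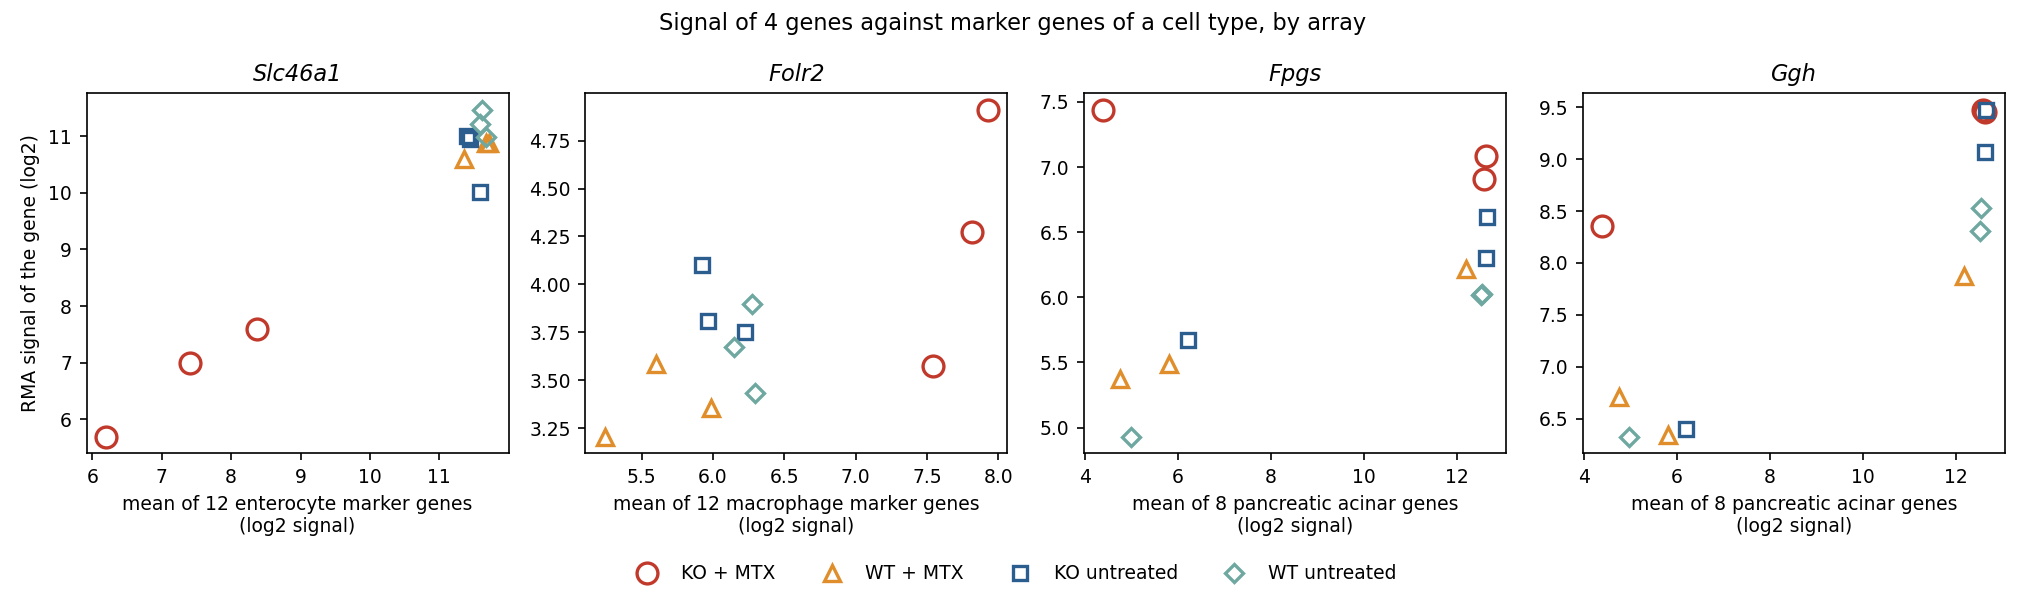
Log2 RMA signal of Slc46a1, Folr2, Fpgs and Ggh (vertical axes, a different range in each panel) against the mean log2 signal of marker genes in the same array (horizontal axes: 12 enterocyte, 12 macrophage and, for Fpgs and Ggh, 8 pancreatic acinar genes); each open symbol is 1 of 12 arrays, shaped and coloured by group. The 3 treated knockout arrays stand apart for enterocyte and macrophage markers, and the arrays fall into classes of 7 and 5 by acinar signal.

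Counted together, 2 of the 6 genes passed for methotrexate in knockout mice, 1 higher and 1 lower, against 34.8% of all genes. Between treated genotypes 3 passed, 2 higher and 1 lower, against 36.9% (20.2% higher and 16.8% lower), and for the interaction 1 passed, against 23.8%. Limma called none of the 6 for methotrexate in wild-type mice, where 0.0744% of all genes passed, and none between untreated genotypes, where 0.0106% passed. At an unadjusted p under 0.05 the count was 0 of 6 in both, against 11.7% and 6.19% of all genes. The median difference of the 6 was 0.25 for methotrexate in knockout mice, -0.27 in wild-type mice, 0.35 between treated genotypes and 0.06 between untreated ones, where the medians of all genes were -0.02, -0.0028, -0.00095 and 0.02. The shares of the 6 were close to those of all genes, so the counts show nothing particular to the group.

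**Figure D3:**
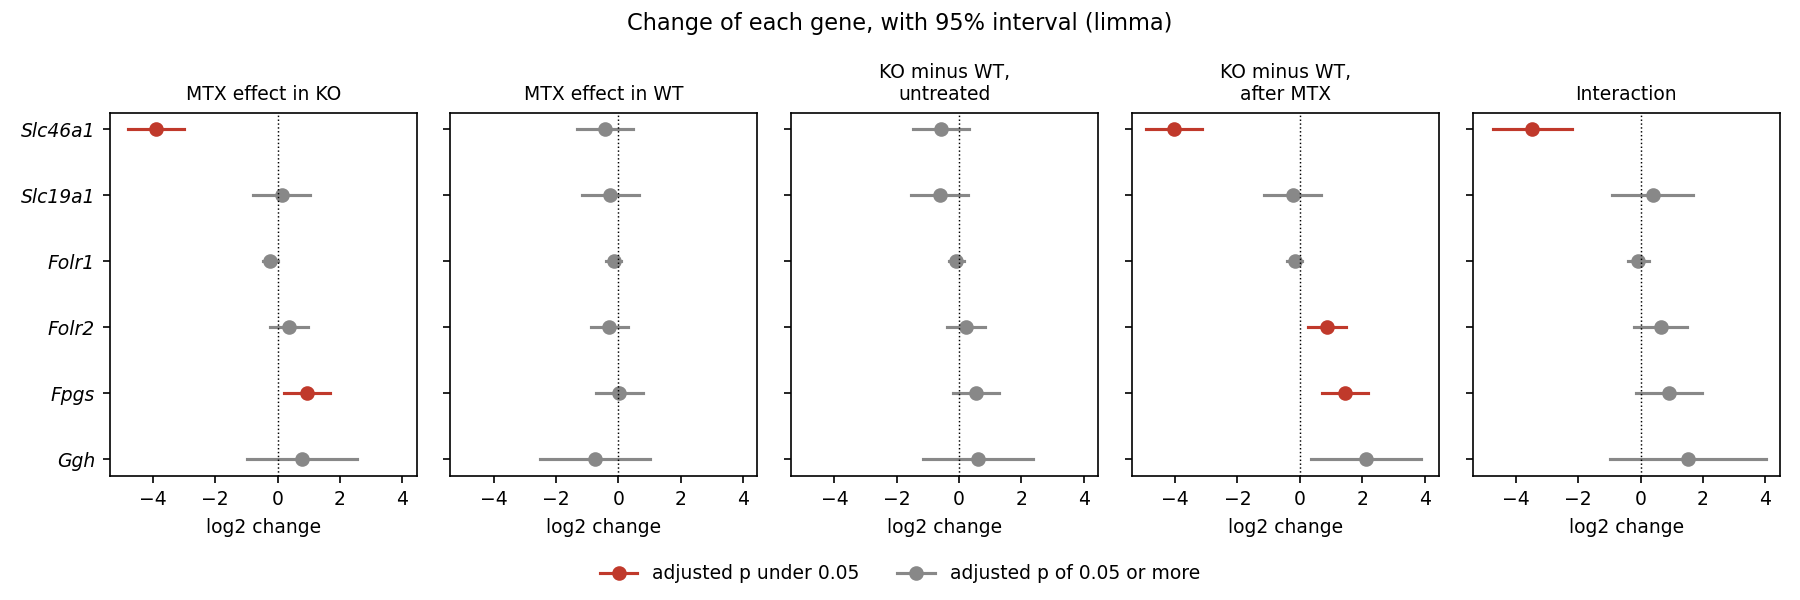
Log2 change (horizontal axes) of each gene (rows) in 5 comparisons (panels), as points with limma's 95% intervals; red marks an adjusted p under 0.05 and grey one of 0.05 or more. Slc46a1 is red in 3 panels, at -3.91, -4.04 and -3.47, Fpgs in 2, at 0.95 and 1.45, and Folr2 in 1, at 0.87, while the widest intervals are those of Ggh.

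Among enzymes that use folate, more rose than fell in treated knockout mice. Of 16 measured genes of folate and one-carbon metabolism, 7 rose and 1 fell after methotrexate in knockout mice, with a median of 0.59 over the list, in a comparison where 18.8% of all genes were higher and 16% lower. Mthfd1l, which makes formate in mitochondria, rose by 2.08 ± 0.27 (adjusted p = 0.000102), and the related mitochondrial gene Mthfd2l by 0.87 ± 0.13. Mtr, the methionine synthase, rose by 0.94 ± 0.17 and Mtrr, its reductase, by 1.25 ± 0.17. The 1 gene that fell was Aldh1l1, a formyltetrahydrofolate dehydrogenase (-1.69 ± 0.38, adjusted p = 0.00458), named as the exception after its value was seen. Between treated genotypes 7 of the 16 were higher and 2 lower, against 20.2% and 16.8% of all genes, led by Mthfd1l (1.80), Mtr (1.01), Mtrr (0.96) and Aldh1l1 (-1.82). None passed in wild-type mice after methotrexate, where Atic, a purine synthesis enzyme, had the smallest p (0.64 ± 0.23, adjusted p = 0.338), nor between untreated genotypes, where that was Mthfd2 (1.11 ± 0.61, adjusted p = 0.788). At an unadjusted p under 0.05 limma gave 2 of the 16 for methotrexate in wild type, near the 11.7% of all genes. Between untreated genotypes it gave 0, against 6.19% of all genes. The mean signal of the 16 genes also moved with pancreatic signal outside treated knockout. It was 6.66 in the treated wild-type array of high and 6.19 and 6.14 in those of low signal. In untreated knockout it was 6.49 and 6.65 against 6.11, and in untreated wild type 6.38 and 6.31 against 5.93. Treated knockout ran the other way, with 6.79 and 6.71 against 6.95. The part of this split in the differences between treated genotypes was not tested.

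Of 9 genes of other folate handling and of efflux, 3 rose and 2 fell in knockout mice, with a median of 0.13, against 18.8% higher and 16% lower of all genes. The efflux pump genes Abcg2 (-2.02 ± 0.15) and Abcc2 (-3.40 ± 0.38) fell, and the pump genes Abcc4 (2.47 ± 0.19) and Abcc1 (1.71 ± 0.20) rose (adjusted p at most 4.29e-05 for each). Abcc3, another pump gene, differed by -0.43 ± 0.33 without passing (adjusted p = 0.358). Between treated genotypes Abcg2 (-2.02), Abcc2 (-3.75), Abcc4 (2.54) and Abcc1 (1.87) passed, and no other of the 9 did. Of all genes 20.2% were higher and 16.8% lower there. None of the 9 passed in wild-type mice, with Abcc5 nearest (0.30 ± 0.15, adjusted p = 0.459), nor between untreated genotypes, with Abcc4 nearest (0.32 ± 0.19, adjusted p = 0.788). By limma's unadjusted p under 0.05 both counts were 0 too, against 11.7% and 6.19% of all genes. The knockout difference was 0.16 ± 0.21 for Slc25a32, the mitochondrial folate carrier, and 0.13 ± 0.09 for Folh1, a folate hydrolase known from the human jejunal brush border, and neither passed. Folh1 was dim, with group means of 2.36 to 2.51, below the 25th percentile of gene means (3.22), so its small difference says little.

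Other vitamin carriers fell or did not pass in treated knockout mice. Of 12 measured genes 5 fell and none rose after methotrexate, with a median of -0.93, against 16% lower and 18.8% higher of all genes. Cubn, the ileal and renal receptor for intrinsic factor with cobalamin, fell by 5.81 ± 0.58, and Slc46a3, a lysosomal relative of Slc46a1, by 2.79 ± 0.29. Slc5a6, the biotin and pantothenate carrier, fell by 0.92 ± 0.15 and Tcn2, the plasma carrier of cobalamin, by 1.41 ± 0.24. Slc19a2, the thiamine carrier related to Slc19a1, differed by 0.44 ± 0.29 without passing (adjusted p = 0.288), and Slc46a2 by -0.13 ± 0.12 (adjusted p = 0.465). Between treated genotypes 6 of the 12 were lower and none higher (16.8% and 20.2% of all genes), among them Slc5a6 (-1.48), Slc46a3 (-2.52), Cubn (-4.40) and Amn (-2.68), the partner of Cubn. None passed in wild-type mice after methotrexate, where Slc5a6 was nearest (0.44 ± 0.15, adjusted p = 0.295), or between untreated genotypes, where Lrp2 was (-0.17 ± 0.13, adjusted p = 0.825). Unadjusted, limma gave 2 and 0 of the 12 under 0.05, against 11.7% and 6.19% of all genes. Slc46a2 (group means 2.40 to 2.57) and Lrp2 (2.79 to 3.09) lay below the 25th percentile of gene means, 3.22, so their small differences say little.

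Most genes linked to the work or regulation of Slc46a1 also fell. Of 6 such genes 5 fell in knockout mice after methotrexate, with a median of -2.09, and 5 were lower in treated knockout than in treated wild-type mice. Of all genes 16% and 16.8% were lower in these comparisons. All 12 enterocyte markers also fell after methotrexate in knockout mice, with a median of -3.39. The part of enterocytes in the falls of the listed genes was not tested. The sodium-proton exchangers of the apical membrane, Slc9a3 and Slc9a2, fell by 3.33 ± 0.33 and 2.75 ± 0.29. Vdr, the vitamin D receptor, and Hnf4a, an enterocyte transcription factor, both of which have been linked to the human SLC46A1 promoter, fell by 3.39 ± 0.27 and 1.44 ± 0.21. Nrf1, the factor whose motif is marked in the Slc46a1 window above, differed by 0.16 ± 0.16 and did not pass (adjusted p = 0.495). Between treated genotypes the differences were -3.37 for Vdr, -2.68 for Slc9a2, -3.03 for Slc9a3 and -1.47 for Hnf4a. None of the 6 passed in wild-type mice or between untreated genotypes, where Slc9a3 had the smallest p in both (-0.78 ± 0.33, adjusted p = 0.409, and -0.48 ± 0.33, adjusted p = 0.806). Unadjusted, limma gave 1 and 0 of the 6 under 0.05, against 11.7% and 6.19% of all genes.

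**Figure D4:**
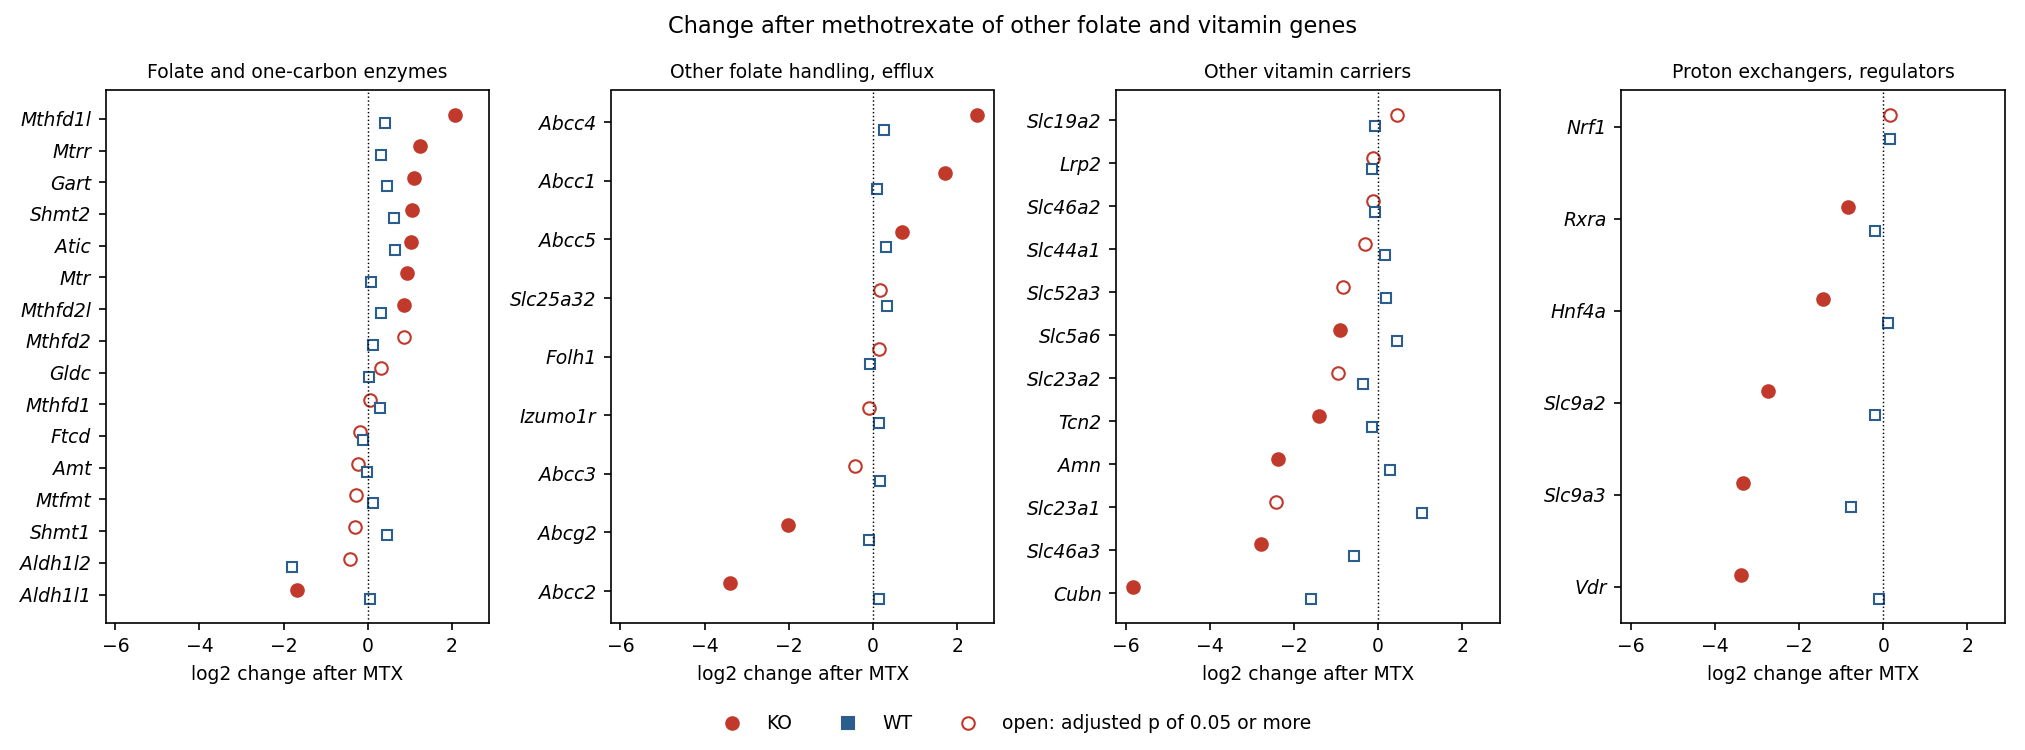
Log2 change after methotrexate (horizontal axes) of other folate and vitamin genes (rows) in 4 lists (panels), in knockout mice (red circles) and wild-type mice (blue squares); filled symbols have an adjusted p under 0.05. In knockout mice filled symbols run between -5.81 for Cubn and 2.47 for Abcc4, and every wild-type symbol is open.

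Other marker lists in treated knockout against untreated knockout mice showed 8 of 8 fibroblast genes higher (median 2.01), 10 of 12 macrophage genes higher (median 1.74), and 2 of 7 proliferation genes higher (median 0.32), where 18.8% of all genes were higher and 16% lower. Of 8 general epithelial genes 1 was higher and 5 lower (median -0.42), and 2 of 5 proximal, 2 of 4 ileal, 3 of 6 T cell and 1 of 6 adipocyte genes were lower. Of 8 acinar genes none passed (median -0.63). The part of all these marker lists in the changes of the folate genes was not tested, apart from the acinar values given above.

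The genes whose signals ran most like those of each folate gene over the 12 arrays were found by Pearson correlation among 18062 named genes, with no test. Nearest to Slc46a1 were Pccb, a mitochondrial propionyl-CoA carboxylase subunit, the cytochrome gene Cyp2c55 and the apical anion exchanger gene Slc26a6, each at 0.99, and 900 genes exceeded 0.9. Nearest to Fpgs were Srm, the spermidine synthase (0.98), Slc1a4, a neutral amino acid carrier (0.98), and Ergic1 (0.97), with 218 above 0.9. Nearest to Ggh were Asns, the asparagine synthetase (0.98), Fam149a (0.98) and Nucb2 (0.98), with 112 above 0.9. Folr2 ran most like Klk1b27, Sgsm1 and Tom1 (0.92 to 0.93). Slc19a1 ran most like Scarb1, Sult6b2 and Als2cl (0.84 to 0.87), and Folr1 most like Gli1, Fam122c and Zdhhc11 (0.87 to 0.88), with no gene above 0.9 for either. All these correlations share the split between treated knockout and other arrays and the split by pancreatic signal.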

How the data were processed

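The authors deposited log2 signals per probe set that were made with RMA (version unknown), per the submitters' processing notes. Per the labels' protocols, total RNA was treated with DNase before cDNA synthesis. The values were used with no further scaling, and array medians lay between 4.37 and 4.56. Arrays give no read depth, so their number limits the precision. Of 35556 probe sets, 21218 had 1 symbol, 1881 several and 12457 none here. Each of 18820 genes was read by its probe set with the highest mean.

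Limma 3.58.1 in R 4.3.3 (lmFit, eBayes) fitted a mean per group to all 12 arrays with 8 residual degrees of freedom, with Benjamini-Hochberg adjustment over all genes at 0.05. The fit was run on simulated data with independent noise for each gene and array. The simulation held neither the pancreatic split nor the correlation of same-numbered arrays described below, so it does not test the fit against them. Genes, lists and tests were chosen with earlier results of the deposited data known. All 6 genes are named in every comparison. Of each folate or vitamin list at most 4 called genes with the smallest p are named, or the smallest p where none was called, with further genes named for their role after their values were seen. Nearest genes are the 3 highest correlations. Alternatives are given at the end.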

Additional observations from a re-analysis of the deposited data

Results flagged for a closer look

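The methotrexate effect in knockout mice differed from that in wild-type mice by the interaction test of limma for these named genes, with every value on the log2 scale and every adjusted p under 0.05. For Slc46a1 the difference was -3.47 ± 0.58 (adjusted p = 0.00104). Among one-carbon enzymes it was 1.67 for Mthfd1l, 0.93 for Mtrr, 0.86 for Mtr and -1.74 for Aldh1l1. Among efflux pumps it was -1.91 for Abcg2, 2.21 for Abcc4, -3.55 for Abcc2 and 1.61 for Abcc1. Among vitamin carriers it was -1.36 for Slc5a6, -2.21 for Slc46a3, -4.22 for Cubn and -2.66 for Amn. Among genes linked to Slc46a1 it was -3.29 for Vdr, -2.55 for Slc9a2, -2.55 for Slc9a3 and -1.55 for Hnf4a. The interaction passed for 23.8% of all genes.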

How the results depend on the processing

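Slc46a1 kept its direction and its call for methotrexate in knockout mice, between treated genotypes and for the interaction under all alternatives run, with changes of -4.34 to -3.69 in knockout mice and of -4.33 to -3.37 with 1 array left out. Of the 6 genes, 2 passed for methotrexate in knockout mice. The count was 1 with a log2 fold of at least 1, when probe sets of 1 gene were averaged or when all probe sets were tested, 4 among the 5 arrays of low pancreatic signal (a fit with 1 residual degree of freedom), and 1 to 2 with 1 array left out. Between treated genotypes 3 passed, 2 with a log2 fold of at least 1, 5 with array weights (Ggh and Folr1, at -0.29, added), 5 among the 7 arrays of high pancreatic signal (Ggh and Slc19a1 added), and 2 to 4 when single arrays were dropped (2 lacking treated wild-type replicate 1 or treated knockout replicate 2 or 3). For the interaction 1 passed, 4 with array weights, 3 among arrays of low pancreatic signal, and 1 to 2 with 1 array left out. The fits by pancreatic class were chosen after that signal was seen. Both hold groups of 1 mouse, so their counts do not measure the spread between mice in those groups. Replicate numbers come without any stated pairing. Deviations of same-numbered arrays from their group means correlated above 0.1 in 15 of 18 pairs (-0.49 to 0.67). The other 3 all hold replicate 3 of the treated wild type, and 8 of 12 arrays, all those numbered 1 and 2, correlated best with their own number. Not every pair reached 0.1, so the fit without the block was kept. With the replicate block the counts were 2, 0, 0, 4 and 1 for methotrexate in knockout, in wild type, untreated genotypes, treated genotypes and the interaction, the added gene being Ggh (adjusted p = 0.00258), and the block changed no other call of the 6 genes. The Folr2 difference between treated genotypes had an adjusted p of 0.084 when only those groups were fitted.

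Signs turned only for changes that had not passed. Slc19a1 in knockout mice was -0.36 with array weights, -0.58 in arrays of high pancreatic signal and -0.47 to 0.44 with 1 array left out. Its interaction was -0.31 in arrays of high signal and -0.21 to 0.70 with 1 array left out, and in arrays of low signal it was 0.074 for methotrexate in wild type and 0.10 between treated genotypes. Fpgs in wild type was -0.056 after quantile normalisation, -0.0024 with centred arrays, -0.36 with array weights and -0.33 to 0.22 with 1 array left out. In arrays of low signal Folr1 between untreated genotypes was 0.021, Folr2 in knockout -0.18 and Ggh in wild type 0.20. With 1 array left out the Folr1 interaction was -0.14 to 0.018, Ggh in knockout -0.18 to 1.36 and Ggh between untreated genotypes -0.10 to 1.55. The arrays that turned a sign were replicate 1 of the untreated knockout (Slc19a1 -0.47 in knockout and -0.21 for the interaction; Ggh -0.18), replicate 1 of the untreated wild type (Fpgs -0.33; Ggh -0.10), replicate 2 of the treated wild type (Fpgs -0.23) and replicate 2 of the treated knockout (Folr1 0.018). The cause was not tested. Over all genes the calls were 14 for methotrexate in wild type (0 to 1819 under other settings, 0 to 97 with 1 array left out), 2 between untreated genotypes (1 to 558, 1 to 6), 6549 in knockout (2792 to 9110), 6948 between treated genotypes (3284 to 8962) and 4479 for the interaction (2845 to 7474).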

Other observations

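The balance of Fpgs and Ggh, the enzymes that add and remove glutamates, was set out as the Fpgs change minus the Ggh change on the log2 scale, with no test. It was 0.17 for methotrexate in knockout mice (0.95 for Fpgs and 0.78 for Ggh), 0.78 in wild-type mice (0.04 and -0.74), -0.67 between treated genotypes (1.45 and 2.12) and -0.06 between untreated genotypes (0.54 and 0.60). The array values of Ggh that enter these differences moved with pancreatic signal as described above. Fpgs was also higher in arrays of high than of low pancreatic signal in treated wild type and in each untreated group. In treated knockout mice the order was reversed.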
